A study of Homo sapiens with 3 samples.

Results

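Transcript levels of 10 genes of Toll-like receptor signalling, chosen by name, were followed, and signalling itself was not measured. The genes are 6 receptors (TLR1 to TLR6), the adaptors MYD88 and TICAM1, and the kinases IRAK1 and IRAK2. They were found on the array through the RefSeq transcript that each probe carries, and 14 of the 58201 non-control probes belong to them. TLR4, TLR5, IRAK1 and TICAM1 have 2 probes each and the other genes have 1, and each of the 14 probes was printed as a single spot. By name, 31104 probes matched 22435 genes in all.

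Toll-like receptors recognise microbial products and molecules released by damaged cells. TLR1, TLR2, TLR4, TLR5 and TLR6 work at the cell surface, where TLR2 pairs with TLR1 or TLR6 for lipopeptides, TLR4 senses lipopolysaccharide and TLR5 senses flagellin. TLR3 senses double-stranded RNA in endosomes. All of these receptors except TLR3 signal through the adaptor MYD88, which recruits the IRAK kinases, and TLR3 signals through the adaptor TICAM1, also called TRIF, which TLR4 uses as well. Both branches lead to NF-kB, and the TICAM1 branch also leads to interferon genes. Airway epithelial cells carry several of these receptors and answer them with chemokines and cytokines.

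The samples were A549 cells, an established line of human lung adenocarcinoma with features of alveolar epithelium. Control cells received 0.1% DMSO, the vehicle, and the labels state no DMSO content for the treated cultures. Cordycepin cells received 60 μg/mL of cordycepin, which is 3′-deoxyadenosine, a nucleoside from Cordyceps fungi. Cordyceps cells received 100 μg/mL of cordyceps, a preparation the labels describe no further. Each treatment lasted 48 h. According to the labels, the medium of all 3 cultures was DMEM with 10% serum and antibiotics, and it also contained nicotinamide at 10 mM, troglitazone at 10 μM and zinc sulfate at 16.7 μM, additions that the methods of the paper do not mention. According to the labels, RNA of each culture was labelled with Cy3, whereas the methods of the paper name Cy3 for vehicle and Cy5 for cordycepin, and the files hold a single channel for each array. Each RNA was hybridised to 1 Agilent array, so each condition has 1 array (n = 1) and no difference below has a replicate error or a p-value. Both treatments are set against the same control array, and their doses differ, so their values stand side by side without a comparison between them.

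Signals are the background-subtracted spot intensities of the scanner software. Ratios are differences of log2 signals after each array's 75th percentile was subtracted, which was a signal of 260.1 for control, 224.3 for cordycepin and 260.2 for cordyceps. A gene is called when its brightest probe differs at least 2-fold and the scanner software found it well above background on either array compared. The lowest signal of any probe so detected, here called the floor, was 18.6 for control, 21.8 for cordycepin and 34.5 for cordyceps. The floor is not a threshold, and some probes with signals above it were not well above background. Technical errors are of 2 kinds, and neither contains biological variation. The scanner software attaches an error to each spot, which gave the ± of the ratios below, and the probe-to-probe SD of a log2 ratio, from the 2 brightest probes of 3356 genes, was 0.35 with cordycepin and 0.34 with cordyceps. A robust estimate of the same spread, which gives less weight to discordant pairs, was 0.25 and 0.20. Signals of different probes depend on the probe as well as on the transcript, so no gene's level is ranked against another's.

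On the cordyceps array, high ratios were concentrated in 1 corner, the spots with a row above 240 and a column above 82. That corner holds 18.6% of the probes but 57.1% of the 1523 probes that were at least 2-fold higher with cordyceps, and 11.24% of its spots there, against 0 on the other arrays, were marked as background outliers. With cordycepin it holds 16.6% of the higher probes. Of the 14 probes, 4 lie in it: those of TLR1 and TLR2 and the brighter ones of TLR4 and IRAK1. The part of the corner in their values was not tested beyond the spots around them. The cell line label was checked against markers. All 7 epithelial markers, among them EPCAM, KRT8, KRT18 and CDH1, were well above background on every array. EPCAM was called lower with cordycepin, with a log2 ratio of -1.51. Of 5 endothelial and fibroblast markers, by brightest probe, 3 were well above background in control cells, 3 with cordycepin and 1 with cordyceps. The brightest of these was COL1A1, by a probe in the corner, at 337.0, 238.7 and 207.5. Of 8 leukocyte markers with a matched probe, CD14, ITGAM and PTPRC were well above background on every array by brightest probe. CSF1R was so on the cordycepin array alone. Of the 5 PTPRC probes, a dimmer one was also well above background on every array, and the rest were on none. The summed leukocyte signal was 3638 in control cells, 1831 with cordycepin and 2403 with cordyceps, most of it from CD14. CD3E, MS4A1 and FCGR3A were not well above background on any array, and the part of leukocyte transcripts in the values below was not tested.

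**Figure D1:**
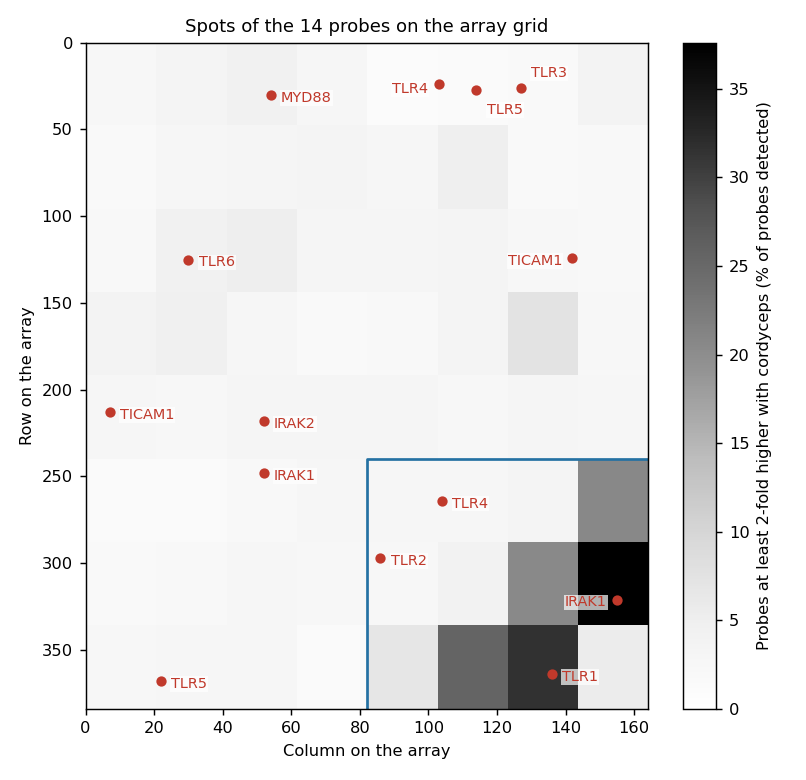
Position of the 14 spots (red) by row and column of the array grid, over blocks shaded by the percentage of detected probes that were at least 2-fold higher with cordyceps; the blue line bounds the corner. The spots of TLR1 and the brighter IRAK1 probe lie in the dark blocks, whereas TLR2 lies in the corner's inner, light part, with 2.1% of the probes around it higher.

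Among the 10 genes, TLR2 and TLR3 were higher on both treated arrays, and IRAK2 was called higher with cordyceps. No gene of the set was called lower with either treatment. With cordycepin, 2 of the 9 genes above background were at least 2-fold higher, compared with 5.95% of the 15917 named genes above background on either array. None was at least 2-fold lower, compared with 3.57%. With cordyceps, 3 of 9 were higher against a background of 4.19% of 15602 named genes, and none was lower against 3.15%. The background of higher genes with cordyceps was 10.7% inside the corner and 2.66% outside it. The median log2 ratio of the 9 genes was -0.10 with cordycepin and -0.07 with cordyceps, beside -0.05 and -0.12 over all named genes with a ratio.

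The sequences upstream of the start sites of 4 genes are shown because they belong to the genes called higher, TLR2, TLR3 and IRAK2, and to MYD88, the member with the lowest ratios by brightest probe. They are the 250 bases before the RefSeq start on GRCh38.p14, 5′ to 3′ on the gene's strand, and all 4 genes lie on the plus strand. Capitals mark matches on either strand to the NF-kB consensus, the interferon-stimulated response element GAAANNGAAA, the AP-1 site TGANTCA, the TATA box TATAAA or the GC box GGGCGG. TLR2 lies at chr4:153684030-153684279, TLR3 at chr4:186068906-186069155, IRAK2 at chr3:10164669-10164918 and MYD88 at chr3:38138411-38138660.
TLR2: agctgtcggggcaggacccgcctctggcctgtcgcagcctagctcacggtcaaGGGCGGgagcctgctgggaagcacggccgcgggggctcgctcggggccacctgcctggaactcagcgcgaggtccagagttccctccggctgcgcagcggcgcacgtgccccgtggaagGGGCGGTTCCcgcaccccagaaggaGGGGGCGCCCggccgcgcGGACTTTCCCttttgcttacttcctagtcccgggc
TLR3: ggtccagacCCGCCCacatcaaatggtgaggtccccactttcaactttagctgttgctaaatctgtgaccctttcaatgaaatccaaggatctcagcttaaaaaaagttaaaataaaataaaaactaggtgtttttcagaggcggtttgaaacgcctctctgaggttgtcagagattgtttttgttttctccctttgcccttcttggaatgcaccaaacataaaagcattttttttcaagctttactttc
IRAK2: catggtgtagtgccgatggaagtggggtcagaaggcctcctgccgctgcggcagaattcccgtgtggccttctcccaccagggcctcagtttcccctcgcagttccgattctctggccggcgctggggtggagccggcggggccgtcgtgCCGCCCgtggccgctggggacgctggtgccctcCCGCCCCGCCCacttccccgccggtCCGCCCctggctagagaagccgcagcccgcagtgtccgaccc
MYD88: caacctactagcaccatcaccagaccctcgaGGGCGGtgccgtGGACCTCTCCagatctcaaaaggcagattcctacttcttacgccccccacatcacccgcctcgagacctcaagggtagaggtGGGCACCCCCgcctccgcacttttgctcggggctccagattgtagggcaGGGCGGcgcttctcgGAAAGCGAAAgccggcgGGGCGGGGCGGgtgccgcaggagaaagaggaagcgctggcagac

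TLR2 held 3 matches to the NF-kB consensus, at -78 to -69, -53 to -44 and -35 to -26 from the start, the first of which overlaps a GC box. MYD88 held 2 such matches and 1 interferon-stimulated response element, at -61 to -52. TLR3 and IRAK2 held neither in this window, and the AP-1 and TATA letters were in none of the 4. Members that were not called held NF-kB matches as well. The windows of IRAK1 and TICAM1, not shown, held 3 each and that of TLR5 held 1, while those of TLR4 and TLR6 held none. IRAK2 and MYD88 held 4 GC boxes each, TLR2 2 and TLR3 1. Of 34788 different upstream windows in the same table, 28.9% held the NF-kB consensus, 3.0% the response element, 6.6% the AP-1 site, 10.8% the TATA box and 42.6% the GC box. These matches describe letters in a window, and binding was not measured.

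TLR3, the endosomal receptor for double-stranded RNA, had a signal of 31.5 in control cells, 110.9 with cordycepin and 79.8 with cordyceps. It was dim on every array and was dimmest in control cells. The log2 ratio was 2.03 ± 0.31 with cordycepin, or 4.08-fold, and 1.34 ± 0.34 with cordyceps, or 2.53-fold. Its single probe lies outside the corner, and 1.2% of the 251 measured probes around it were higher with cordyceps. The control signal of TLR3, although above the floor of its own array, was below the floor of the cordyceps array. In RNA from whole cultures, more cells with the transcript and more transcript per cell cannot be told apart.

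TLR2, the surface receptor for lipopeptides, had a signal of 48.6 in control cells, 111.8 with cordycepin and 134.1 with cordyceps. It was well above background on every array, and both treated signals were above the control signal. The log2 ratio was 1.42 ± 0.24 with cordycepin, or 2.67-fold, and 1.46 ± 0.25 with cordyceps, or 2.76-fold. Its single probe lies in the corner, 4 columns from its edge. The background around that spot was 46 for control, 43 for cordycepin and 40 for cordyceps, and it was marked as an outlier on none of the arrays. Of the 238 measured probes around it, 2.1% were higher with cordyceps and their median log2 ratio was -0.20. Another probe of TLR2 was not found, so the value rests on this spot.

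Both receptor ratios were smaller with normexp, which models the background and adds an offset of 50 to every signal. Such an offset shrinks ratios of dim signals by construction, and the background model was not tested without it. With normexp, the log2 ratio of TLR3 was 0.97 with cordycepin and 0.53 with cordyceps. That of TLR2 was 0.80 and 0.82. All 4 values kept their sign but lay under 2-fold, so no member was called with cordycepin and IRAK2 alone with cordyceps.

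The partners of TLR2 were not called. TLR1 had a signal of 211.8 in control cells, 137.6 with cordycepin and 202.6 with cordyceps, with log2 ratios of -0.41 ± 0.21 and -0.06 ± 0.21, the latter 0.21 under median scaling. Its spot lies in the dark part of the corner, where its local background was flagged on the cordyceps array and 23.2% of the probes around it were higher with cordyceps. TLR6 had signals of 117.6, 94.5 and 90.9 in the same order, with log2 ratios of -0.10 ± 0.23 and -0.37 ± 0.25. TLR1, TLR6 and TLR10 are close paralogs, and whether their probes separate the transcripts was not tested.

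TLR5, the flagellin receptor, differed little between the arrays. Its brighter probe gave 179.2 in control cells, 126.3 with cordycepin and 137.9 with cordyceps, which are log2 ratios of -0.29 ± 0.22 and -0.38 ± 0.23. The other probe gave 73.9, 65.1 and 68.0, with ratios of 0.03 ± 0.25 and -0.12 ± 0.29. TLR4, the lipopolysaccharide receptor, was not well above background on any array by either probe. The probe in the corner gave 7.0 in control cells, 19.4 with cordycepin and 7.1 with cordyceps, and the other gave 11.1, 10.7 and 8.1, so no ratio is given for TLR4.

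**Figure D2:**
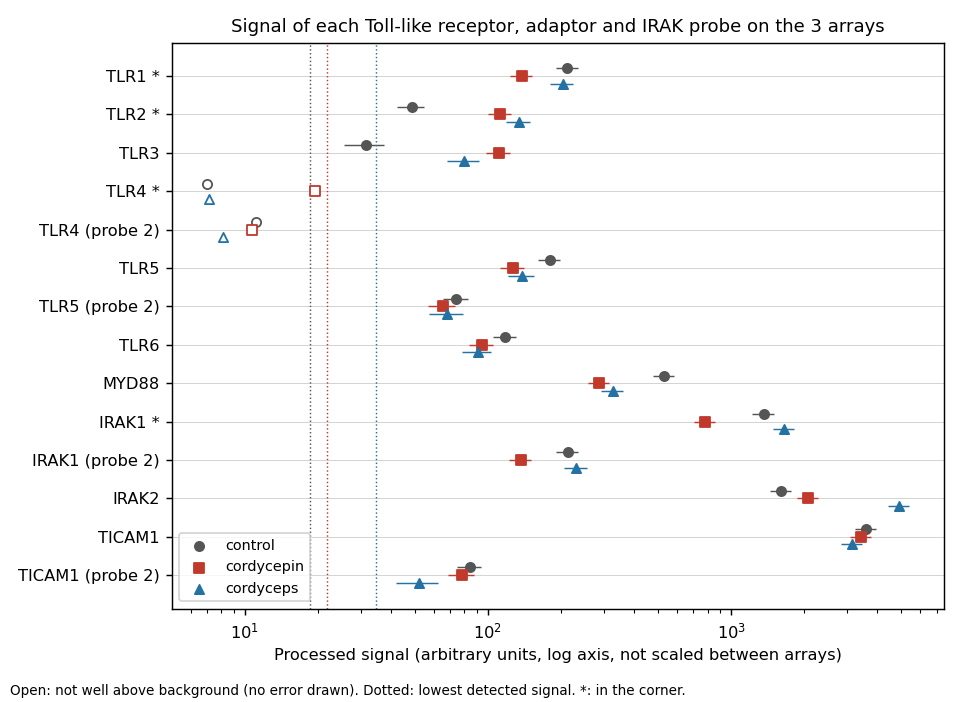
Processed signal of each of the 14 probes (log axis, arbitrary units, before scaling between arrays) on the control, cordycepin and cordyceps arrays, 1 array each; bars are the scanner software's error, open symbols are not well above background and dotted lines mark the lowest detected signal of each array. The control points of TLR2 and TLR3 lie left of both treated points, the cordyceps point of IRAK2 lies at 4917, and both TLR4 probes are open on all 3 arrays.

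MYD88, the adaptor of all the receptors except TLR3, had a signal of 530.7 in control cells, 285.8 with cordycepin and 325.8 with cordyceps. Its log2 ratios were -0.68 ± 0.21 and -0.70 ± 0.21, the lowest of the set by brightest probe with each treatment and short of 2-fold. At a threshold of 1.5-fold MYD88 was lower with both treatments. TICAM1, the adaptor of TLR3 and TLR4, gave 3602 in control cells, 3430 with cordycepin and 3136 with cordyceps by its brighter probe, with log2 ratios of 0.14 ± 0.20 and -0.20 ± 0.20. The sign of the first became negative under median scaling, at -0.12, and without scaling, at -0.07, and that of the second became positive under median scaling, at 0.07. Its dimmer probe gave 84.3, 78.2 and 51.9, with ratios of 0.11 ± 0.24 and -0.70 ± 0.33, so that the 2 probes differed by more with cordyceps than with cordycepin.

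Of the kinases downstream of MYD88, IRAK2 was called with cordyceps and IRAK1 with neither treatment. IRAK2 had a signal of 1601 in control cells, 2070 with cordycepin and 4917 with cordyceps. Its log2 ratio was 0.58 ± 0.20 with cordycepin, or 1.5-fold and not called, and 1.62 ± 0.20 with cordyceps, or 3.07-fold. The spot lies outside the corner, with 1.7% of the 239 measured probes around it higher. IRAK2 was bright, and with normexp its ratios were 0.60 and 1.61. IRAK1 gave 1360 in control cells, 779.3 with cordycepin and 1646 with cordyceps by its brighter probe, with log2 ratios of -0.59 ± 0.20 and 0.27 ± 0.20. That probe lies in the dark part of the corner, where 32.2% of the probes around it were higher with cordyceps and its local background was flagged. The dimmer probe lies outside the corner and gave 212.7, 136.4 and 230.2, with ratios of -0.43 ± 0.21 and 0.11 ± 0.21. Both IRAK1 probes were therefore below control with cordycepin, without reaching 2-fold.

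**Figure D3:**
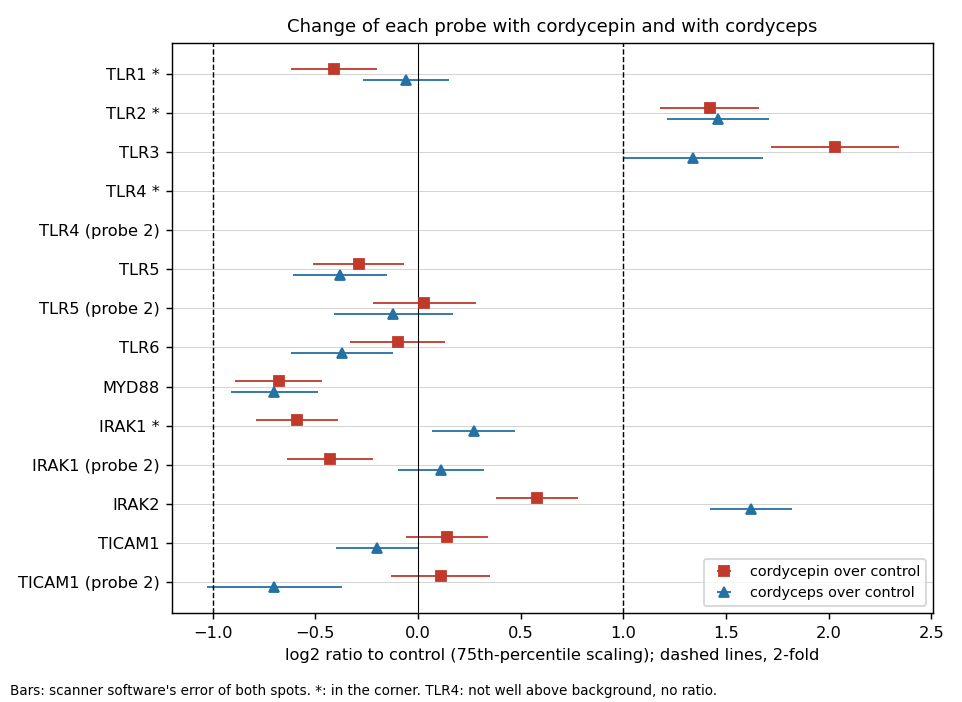
log2 ratio to control of each probe with cordycepin (squares) and cordyceps (triangles) after 75th-percentile scaling, with the error of both spots from the scanner software; dashed lines mark 2-fold and an asterisk marks probes in the corner. TLR2 and TLR3 lie above 1 with both treatments and IRAK2 with cordyceps, while MYD88 lies at -0.68 and -0.70.

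The other receptors, TLR7, TLR8 and TLR10, were not well above background on any array. TLR9 was, at 27.6, in control cells alone. With cordyceps its signal was also 27.6, which lies below the lowest detected signal of that array, 34.5, and with cordycepin it was 12.7. Of 6 co-receptors and accessory proteins of the surface receptors, 4 were above background in each comparison. Of these, 1 was called, as higher with cordycepin, beside 5.95% of all named genes. LY96, the MD-2 subunit through which TLR4 binds lipopolysaccharide, had a signal of 94.0 in control cells, 344.6 with cordycepin and 128.9 with cordyceps. It was 4.25-fold higher with cordycepin, while its log2 ratio with cordyceps was 0.45. CD14, which hands lipopolysaccharide to TLR4 and is also a leukocyte marker, gave 3387, 1559 and 2183, with log2 ratios of -0.91 and -0.63. LBP, which carries lipopolysaccharide, gave log2 ratios of 0.54 and 0.32 from a probe in the corner, and LY86 gave 0.42 and -0.20. CD36 and CD180 were not well above background.

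IRAK3, a member of the kinase family that restrains IRAK signalling, gave 3.9 in control cells, 37.1 with cordycepin and 10.0 with cordyceps, and only the second of these was well above background. Against the lowest detected signal of the control array, it was at least 2.31-fold higher with cordycepin. IRAK4, which starts the kinase cascade, gave log2 ratios of -0.21 and 0.57. Of the remaining adaptors, TIRAP, which bridges TLR2 and TLR4 to MYD88, gave 0.20 and 0.11 by its brightest probe, SARM1, an inhibitory adaptor, gave -0.77 and 0.13, and PIK3AP1 was not well above background. TICAM2 had no probe matched by transcript.

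Calls further down the pathway are given by group of genes. The 19 downstream genes encode ubiquitin enzymes, kinases and their binding partners such as TRAF6, MAP3K7, TAB1 and TBK1. None was called with either treatment. Of all named genes, 5.95% were higher and 3.57% lower with cordycepin, and 4.19% and 3.15% with cordyceps. With such shares, no call among 19 genes is near the background. The log2 ratios of the 19 genes ran from -0.91 to 0.77 with cordycepin and from -0.38 to 0.70 with cordyceps. Their medians were -0.14 and -0.04. The lowest value with cordycepin was that of RIPK1, the kinase that TICAM1 binds. None of the 6 matched trafficking and folding genes was called by its brightest probe either. UNC93B1, which escorts TLR3 to endosomes, gave log2 ratios of -0.75 and -0.38, and its other 2 probes gave -0.88 and -0.01, and -0.81 and -0.14. HSP90B1, the chaperone of several Toll-like receptors, gave -0.52 with cordycepin and 0.95 with cordyceps by a probe in the corner, and -0.43 and 1.40 by a dimmer probe outside it.

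By brightest probe, 3 of 13 negative regulators were higher with cordycepin, beside 5.95% of all named genes. The same 3 were higher with cordyceps, beside 4.19%, and both ratios share the control array. None was lower, beside 3.57% and 3.15%. TNFAIP3, the deubiquitinase A20, had a signal of 604.7 in control cells, 1407 with cordycepin and 1669 with cordyceps, with log2 ratios of 1.43 and 1.46. SOCS1, an inhibitor of cytokine signalling, gave 52.4, 116.0 and 115.4, with log2 ratios of 1.36 and 1.14. ATF3, a stress-induced repressor, gave 517.3, 1772 and 4542, with log2 ratios of 1.99 and 3.13. A dimmer probe gave -0.01 and -0.50 and another, in the corner, 1.01 and 1.85, whereas the remaining one was below background in control cells, at 6.3, and was called higher at 42.0 and 92.2. Of the 4 ATF3 probes, 3 were thus called higher with both treatments and 1 with neither. TOLLIP and SIGIRR, which act on the receptors themselves, gave log2 ratios between -0.31 and 0.04 by brightest probe. DOK3 was not called by its brightest probe, in the corner, at -0.40 and -0.07. A dimmer DOK3 probe was called higher with cordycepin, at 1.34, and another gave 0.75 and was not called.

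Among 10 transcription factors, 9 were above background in each comparison, and FOS alone was called. FOS was lower, with log2 ratios of -1.15 with cordycepin and -1.08 with cordyceps. Of all named genes, 3.57% and 3.15% were lower. The NF-kB subunit RELA gave 0.11 and 0.34 and NFKB1 gave 0.05 and 0.73. IRF3, which the TICAM1 branch activates, gave -0.27 and -0.38, and 0.20 and -0.18 by a dimmer probe in the corner. IRF7, by a probe in the corner, gave 0.82 and 0.13. Of 20 output genes, 16 were above background in each comparison. With cordycepin 8 were higher and with cordyceps 6, beside 5.95% and 4.19% of all named genes, and none was lower. Their median log2 ratios were 1.06 and 0.80, beside -0.05 and -0.12 over all named genes. TNF gave log2 ratios of 2.18 and 1.20 and ICAM1 2.35 and 1.17. IL6 gave 1.73 and 2.52 by its brighter probe, and its other probe was not well above background on any array. CCL5 was called with cordycepin, at 3.66, and gave 0.66 with cordyceps, and CXCL8 was called with cordyceps, at 1.41, and gave 0.78 with cordycepin. The interferon-induced genes IFIT1, IFIT2 and IFIT3 were not called, with log2 ratios of 0.35 to 0.77 with cordycepin and of -0.71 to -0.23 with cordyceps, whereas ISG15 gave 2.18 and 0.68. The interferons IFNB1 and IFNL1 were not well above background on any array. Earlier results of these arrays had already shown rises of several of the output genes, so their count is no independent evidence.

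**Figure D4:**
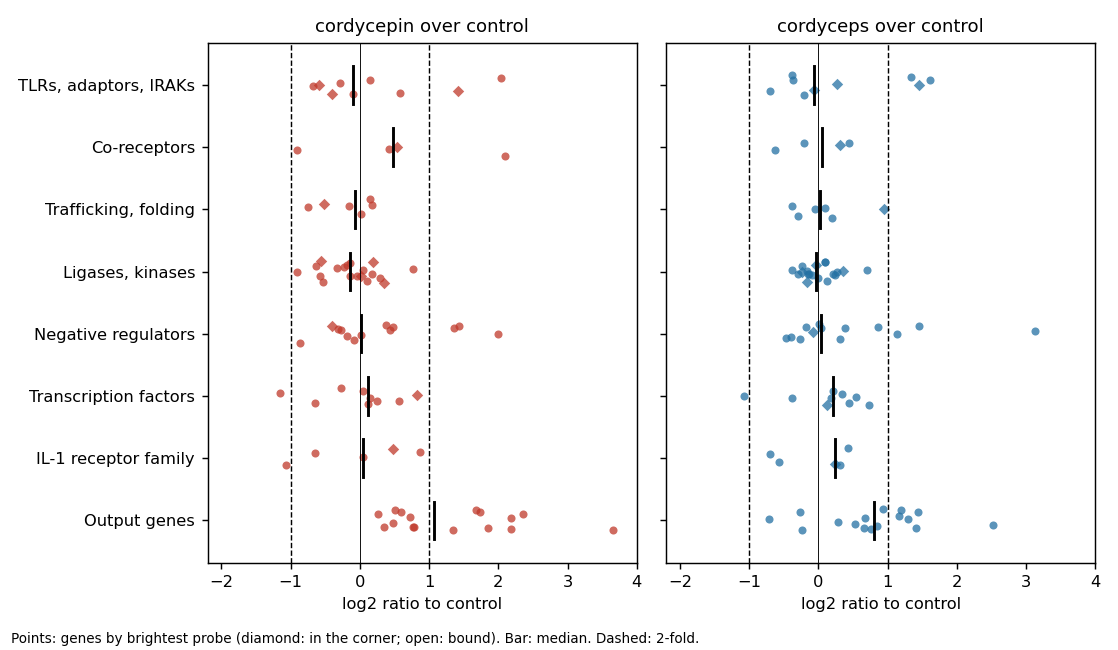
log2 ratio to control of each gene by its brightest probe, grouped by role in Toll-like receptor signalling, with cordycepin (left) and cordyceps (right); black bars are medians, dashed lines 2-fold and diamonds probes in the corner. The output genes have medians of 1.06 and 0.80, and none of the 19 downstream ubiquitin enzymes, kinases and binding partners passes 2-fold. Of all named genes, 5.95% were higher and 3.57% lower with cordycepin, and 4.19% and 3.15% with cordyceps.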

How the data were processed

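A549 cells of 3 conditions were profiled with 1 Agilent one-colour array each. The authors deposited the scanner output, whose intensity values had been background-subtracted and spatially detrended by Feature Extraction 11.5.1.1 (array design on hg19) without scaling between arrays, and a value table with the same intensity per probe; the methods name GeneSpring for normalisation. From these files, control spots and outlier-flagged spots were left out, log2 signals were averaged over a probe's spots, and the 75th percentile over probes was subtracted. A probe was detected when 50% or more of its spots were well above background. A probe above background on 1 array only had its bright value set against the higher of the dim value and the lowest detected signal of the other array, and this bound was used only where it kept its direction. Errors of ratios combine the scanner software's errors of both spots. Probes around a spot were those within 12 rows and 10 columns, and those called measured were well above background on either array compared. Gene names came from RefSeq transcripts without versions (GRCh38.p14 gene table), and the brightest probe over the 3 arrays represented a gene. With 1 array per condition no test was run. The members and lists were chosen with earlier results of these data known. The genes named are the members, the other receptors, co-receptors, adaptors and IRAK kinases, called genes of the further lists, and others given as examples, chosen after their values were seen; the upstream sequences and motifs were also chosen then. Alternatives covered the scaling, normexp, detection, outlier spots, the value table, the choice of probe, thresholds and the corner. The calling step was tested on simulated data, with noise smaller than the probe-to-probe SD above. Changes were put only into detected probes of brighter signal, and all were larger than 2-fold. Calls of dim probes were therefore not tested by it. Python 3.11.15, numpy 2.4.6, pandas 2.3.3, R 4.3.3 and limma 3.58.1 were used.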

Additional observations from a re-analysis of the deposited data

How the results depend on the processing

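The number of members called with cordycepin, 2 under the main setting, was 0 with normexp background correction, 1 with a threshold of 3-fold, 4 with one of 1.5-fold, where MYD88 and IRAK1 were lower, and 1 without the corner, where TLR1 and TLR2 have no probe. With cordyceps, 3 became 1 with normexp, 1 with 3-fold, 4 with 1.5-fold, where MYD88 was lower, and 2 without the corner, where TLR2 has no probe. Median scaling moved the members' median log2 ratio to -0.37 with cordycepin and 0.21 with cordyceps, and that over all named genes by -0.26 and 0.27. Fewer probes and another threshold change counts by construction, and for normexp the cause was not tested. The calls of TLR2 and TLR3 with both treatments and of IRAK2 with cordyceps held under the other scalings. They also held with the value table, outlier spots kept, detection on both arrays and the other choices of probe. Those settings could hardly have changed them and are no separate evidence. The value table holds the same intensities, and each of these genes has a single probe, of a single spot, well above background on every array. TLR4 was also called with cordycepin without a detection filter or with a positive and significant signal as detection. No ratio of a called member changed sign; the alternatives were run for the members alone. The number of arrays and the dim signals of TLR2 and TLR3 limit the precision. No paired analysis was possible because each condition has 1 array.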

Other observations

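The interleukin-1 receptor family shares MYD88 and the IRAK kinases with the Toll-like receptors. Of its 7 genes, 5 were above background and 1, IL1R1, was called lower with cordycepin, beside 3.57% of all named genes. IL1R1, the signalling receptor of interleukin-1, gave 307.9 in control cells, 126.2 with cordycepin and 190.0 with cordyceps. Its log2 ratios were -1.07 and -0.70. A dimmer IL1R1 probe was well above background in control cells alone, at 104.5, against 26.6 and 43.3. IL1RAP, its co-receptor, gave log2 ratios of 0.87 and 0.32, and IL1R2, the decoy receptor, gave -0.65 and -0.57. IL1RL1 and IL1RL2 were not well above background.

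Molecules of the cells themselves reported to engage TLR2 or TLR4 differed in both directions, with 3 of the 8 genes above background higher and 1 lower with cordycepin, beside 5.95% and 3.57% of all named genes. With cordyceps 1 of 8 was higher and 1 lower, beside 4.19% and 3.15%. S100A8 gave log2 ratios of 1.26 and 0.68, and S100A9, from a probe in the corner, 1.28 and 1.84. VCAN, a matrix proteoglycan, gave signals of 11377, 2699 and 6378 and log2 ratios of -1.86 and -0.84. HSPA1A, which has a near-identical paralog that its probe was not tested against, gave -0.27 and -1.38. The other gene higher with cordycepin was SAA1, with a log2 ratio of 5.23, beside 0.61 with cordyceps.

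By the distance between pairs of log2 ratios, the genes most like TLR3 among 11248 outside the corner and detected on all 3 arrays were DHRS2, LST1 and TNF, at distances of 0.065, 0.102 and 0.208. With 1 array per condition each pair holds 2 values that share the control array. All 3 distances are smaller than the errors of the TLR3 ratios, 0.31 and 0.34, so the order of nearest genes is not resolved.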
